A study of Homo sapiens with 8 samples.

Results

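The genes described here are 4 keratins of simple epithelia (KRT7, KRT8, KRT18 and KRT19) and the epithelial surface proteins E-cadherin (CDH1) and EPCAM. They were taken by name from a table of RNA-seq counts, and they make up 6 of its 61209 gene names. KRT7 had too few reads to be tested, so 5 of the 6 were tested among 22554 genes. The cells came from H1, a long-established embryonic stem cell line, and carried the genotype Msx1-P2A-tdTomato, a fluorescent reporter at the homeobox gene MSX1. All groups were driven towards lateral plate mesoderm, first with 50 ng/mL Activin A, 40 ng/mL BMP4, 10 ng/mL FGF2 and 6 µM CHIR99021 (an inhibitor of GSK3), then with 60 ng/mL BMP4 and 1 µM CHIR99021. Dissociation followed on day 4, and pellets were formed from 25000 cells in each well. The treated groups received FGF8 and FGF10 at 500 ng/mL each (FGF8+10). The control is labelled Mock, and the labels give every library the FGF8+10 protocol, so the Mock medium is not described. RNA was taken on day 8 from cells labelled Msx1+Pdgfra+ (Pdgfra-positive) or Msx1+Pdgfralow (Pdgfra-low). The labels used here do not say how these populations were separated. The 4 groups have 2 libraries each, titled as biological replicates. Separate cultures are not named, so p-values rest on the spread between libraries, which may be technical.

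Keratins are the intermediate filament proteins of epithelial cells. A filament is built from a type II keratin, such as KRT7 or KRT8, paired with a type I keratin, such as KRT18 or KRT19. KRT8 and KRT18 are the first keratins made in the embryo, and KRT8, KRT18 and KRT19 are also found in mesothelium, amnion and other simple epithelia. E-cadherin joins epithelial cells at adherens junctions through the catenins and is lost from cells that become mesenchymal, and EPCAM is a surface glycoprotein of most simple epithelia and of pluripotent stem cells. H1 cells are epithelial before differentiation, and lateral plate mesoderm is the layer that forms limb mesenchyme and the lining of the body cavity.

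Depth ranged from 47698561 to 64390444 counts per library, with both mates of a read pair counted. Levels are CPM, the counts relative to library sizes scaled by edgeR's TMM method, and differences are log2 fold changes with their standard errors. PDGFRA followed the labels, at 712 and 716 CPM in Pdgfra-positive and 279 and 292 CPM in Pdgfra-low libraries with FGF8+10, and 453 and 455 against 194 and 189 CPM under Mock. MSX1 lay between 21.3 and 52.8 CPM in all 8 libraries. The pluripotency genes POU5F1 and NANOG had group means of at most 0.06 and 0.04 CPM. In bulk RNA, a larger share of cells that express a gene and more RNA per cell cannot be told apart.

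The 6 genes fell into 2 classes of abundance. KRT8, KRT18 and KRT19 were among the abundant transcripts in every group, while CDH1, EPCAM and KRT7 were near the limit of detection. On RPKM (CPM per kilobase of the gene's merged exons), KRT19 lay at the 99.0 to 99.7 percentile of the tested genes over the 4 groups, KRT8 at the 94.1 to 99.1 and KRT18 at the 93.8 to 98.5 percentile. EPCAM lay at the 23.5 to 32.3 percentile and CDH1 at the 1.3 to 20.5 percentile. The order of RPKM levels was KRT19, KRT8, KRT18, EPCAM, CDH1 and KRT7 in all 4 groups. KRT8 and KRT18 were nearly level in FGF8+10 Pdgfra-positive cells, with KRT8 at 1.06 and 1.02 times the RPKM of KRT18 in the 2 libraries. The place of KRT19 above KRT8 depended on the length used. Over the length of the principal GENCODE 29 transcript, KRT8 (347 ± 5.2 RPKM) stood above KRT19 (236 ± 4.8 RPKM; SD, n = 2) in FGF8+10 Pdgfra-low cells, and below it in the other 3 groups. Together the counts of the 6 genes came to between 0.0471% and 0.13% of the TMM-scaled library size.

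**Figure D1:**
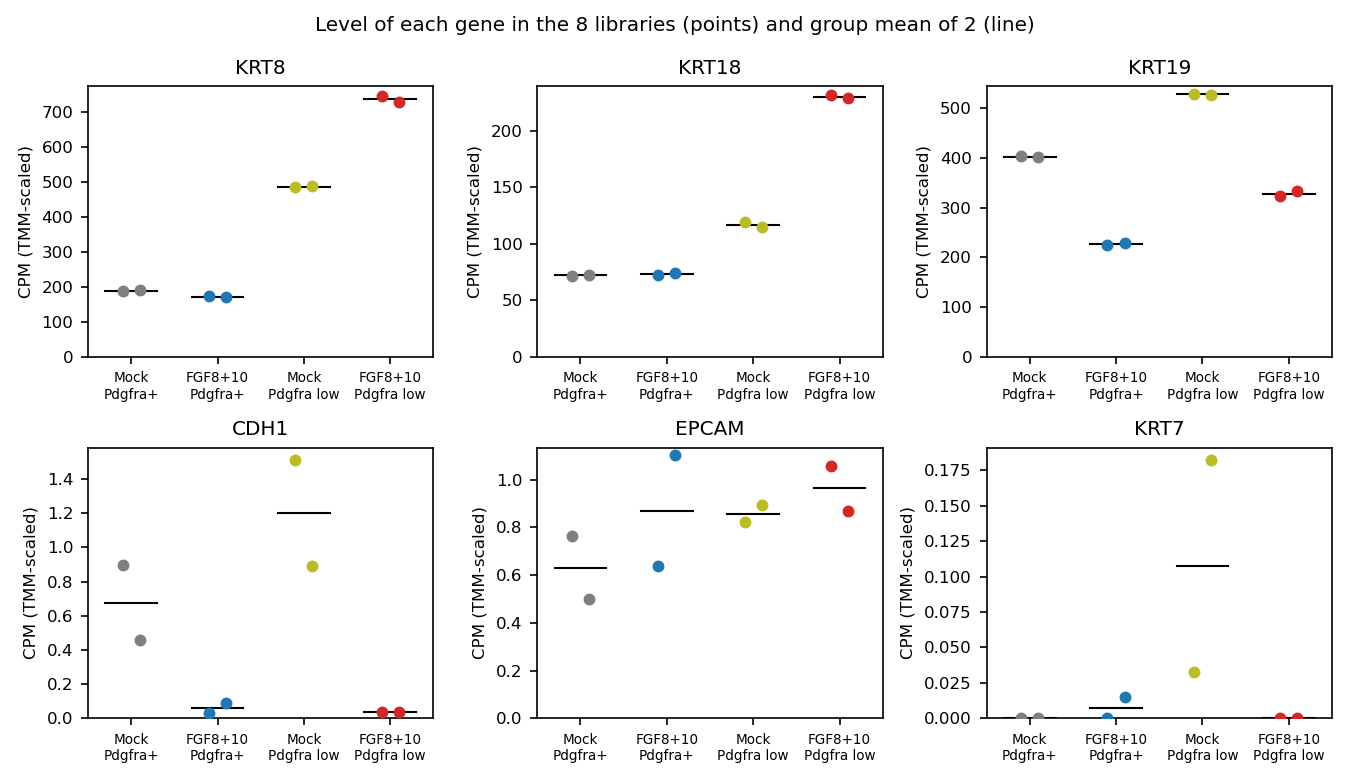
Level of each gene in CPM (vertical axis, from 0, a scale per panel) in the 8 libraries; points are libraries and lines are the means of 2. KRT8 and KRT18 are highest in FGF8+10 Pdgfra-low cells, KRT19 is highest in Mock Pdgfra-low cells, and CDH1 lies below 0.1 CPM in all 4 FGF8+10 libraries.

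KRT8 (GRCh38 chromosome 12, 52897187 to 52949954, minus strand), the type II partner of KRT18, set the Pdgfra-low cells apart. It measured 189 and 190 CPM in the Mock Pdgfra-positive libraries and 173 and 171 CPM in the FGF8+10 Pdgfra-positive ones. In Pdgfra-low cells it measured 484 and 487 CPM under Mock and 745 and 729 CPM under FGF8+10. All 4 Pdgfra-low libraries lay above all 4 Pdgfra-positive ones, and no groups overlapped. KRT8 was 4.29-fold higher in Pdgfra-low than in Pdgfra-positive cells under FGF8+10 (positive minus low, log2 -2.10 ± 0.0237 (SE), adjusted p = 1.12e-45, edgeR quasi-likelihood test) and 2.56-fold higher under Mock (log2 -1.36 ± 0.0238, adjusted p = 2.24e-38). Within Pdgfra-low cells, FGF8+10 went with a 1.52-fold higher level (log2 0.60 ± 0.0225, adjusted p = 5.64e-27). In Pdgfra-positive cells KRT8 was lower, at 0.908-fold (log2 -0.14 ± 0.0242, adjusted p = 3.18e-06), but this direction rested on the scaling. With library totals alone the log2 value was 0.0327 (adjusted p = 0.265).

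KRT18 (chromosome 12, 52948871 to 52952906, plus strand), the type I partner of KRT8, shared the Pdgfra-low pattern but not its size. The Mock Pdgfra-positive libraries held 71.8 and 72.8 CPM and the FGF8+10 Pdgfra-positive ones 72.3 and 74.5 CPM, and the groups overlapped. In Pdgfra-low cells the values were 119 and 115 CPM under Mock and 232 and 229 CPM under FGF8+10, with no overlap. KRT18 was 3.13-fold higher in Pdgfra-low than in Pdgfra-positive cells under FGF8+10 (log2 -1.65 ± 0.0329, adjusted p = 1.44e-36) and 1.61-fold higher under Mock (log2 -0.69 ± 0.0344, adjusted p = 3.26e-21). FGF8+10 went with a 1.97-fold higher level in Pdgfra-low cells (log2 0.98 ± 0.032, adjusted p = 3.38e-29). In Pdgfra-positive cells the difference was 0.0227 ± 0.0351 on the log2 scale (adjusted p = 0.628), and it became 0.20 (adjusted p = 5.06e-06) with library totals alone.

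KRT19 (chromosome 17, 41523617 to 41528308, minus strand), a small type I keratin that lacks most of the tail domain, went the other way under FGF8+10. Its libraries held 404 and 402 CPM in Mock Pdgfra-positive cells, 225 and 229 CPM in FGF8+10 Pdgfra-positive cells, 530 and 526 CPM in Mock Pdgfra-low cells and 323 and 333 CPM in FGF8+10 Pdgfra-low cells. The 4 groups were separate, and both Mock groups lay above both FGF8+10 groups. FGF8+10 libraries were 1.78-fold lower in Pdgfra-positive cells (log2 -0.83 ± 0.0238, adjusted p = 2.97e-31) and 1.61-fold lower in Pdgfra-low cells (log2 -0.69 ± 0.0233, adjusted p = 1.61e-28). KRT19 was 1.45-fold higher in Pdgfra-low than in Pdgfra-positive cells under FGF8+10 (log2 -0.53 ± 0.0238, adjusted p = 2.4e-23) and 1.31-fold higher under Mock (log2 -0.39 ± 0.0233, adjusted p = 1.93e-18). Thus all 3 abundant keratins were higher in Pdgfra-low cells under both treatments, whereas in Pdgfra-low cells FGF8+10 went with more KRT8 and KRT18 and less KRT19.

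The effect of FGF8+10 differed between the populations for each of these keratins when the difference itself was tested. Pdgfra-positive minus Pdgfra-low, it was -0.74 ± 0.0331 for KRT8 (adjusted p = 8.95e-23), -0.96 ± 0.0475 for KRT18 (adjusted p = 4.34e-21) and -0.14 ± 0.0332 for KRT19 (adjusted p = 0.000776) on the log2 scale. The KRT19 difference was the smallest, since its level was lower with FGF8+10 in both populations.

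CDH1 (chromosome 16, 68737292 to 68835537, plus strand) was scarce in Mock cells and almost without reads in FGF8+10 cells. The counts were 40 and 22 in the Mock Pdgfra-positive libraries and 2 and 6 in the FGF8+10 Pdgfra-positive ones. They were 92 and 54 in the Mock Pdgfra-low libraries and 2 and 2 in the FGF8+10 Pdgfra-low ones. Every Mock library held more CDH1 reads than any FGF8+10 library, and the 4 counts of the FGF8+10 Pdgfra-low group lay under its floor. That floor is 6 counts, or 3 read pairs, over the group, the most that a count of 0 allows. Mock cells had 11.3 times the CPM of FGF8+10 cells in the Pdgfra-positive population, with an exact 95% interval of 4.0 to 44.1, and 33.6 times in the Pdgfra-low population, with an interval of 8.97 to 283. These intervals take 2 mate counts as 1 pair and cover counting error only. The fitted differences, FGF8+10 minus Mock, were -3.47 ± 0.64 (adjusted p = 8.53e-06) and -4.99 ± 0.68 (adjusted p = 2.1e-08), and such fitted values depend on the prior count of edgeR. The fall was not shown to differ between populations (log2 1.52 ± 1.07, adjusted p = 0.347). Under Mock, Pdgfra-low cells had 1.8 times the CPM of Pdgfra-positive cells, with a counting interval of 1.17 to 2.84. The replicates were 0.896 and 0.457 CPM against 1.51 and 0.893 CPM, which overlap, and the test across libraries did not call the difference (log2 -0.83 ± 0.47, adjusted p = 0.218).

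EPCAM (chromosome 2, 47345158 to 47387601, plus strand) was low in all groups and was called in none of the comparisons. It measured 0.762 and 0.498 CPM in Mock Pdgfra-positive, 0.637 and 1.10 CPM in FGF8+10 Pdgfra-positive, 0.821 and 0.893 CPM in Mock Pdgfra-low and 1.06 and 0.870 CPM in FGF8+10 Pdgfra-low libraries, from 24 to 75 counts each. The groups overlapped. FGF8+10 minus Mock was 0.47 ± 0.39 on the log2 scale in Pdgfra-positive cells (adjusted p = 0.332) and 0.17 ± 0.37 in Pdgfra-low cells (adjusted p = 0.737). The ratio of Mock to FGF8+10 CPM had a 95% counting interval of 0.443 to 1.14 in the first population and 0.594 to 1.32 in the second, and both intervals include 1. Under FGF8+10 EPCAM held 118 counts in Pdgfra-positive and 107 in Pdgfra-low cells, where CDH1 held 8 and 4.

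KRT7 (chromosome 12, 52232520 to 52252186, plus strand), a type II keratin of ducts, mesothelium and amnion, had 13 of its 14 counts in Mock Pdgfra-low cells. The 2 libraries of that group held 2 and 11 counts, the FGF8+10 Pdgfra-positive ones 0 and 1, and the other 4 libraries 0. Of the 13 counts, 11 came from 1 library and 2 from the other, and the other groups held 0 or 1 counts, so no fold is given. Fitted without a filter on low counts, KRT7 was called in none of the comparisons (adjusted p from 0.137 to 0.743).

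**Figure D2:**
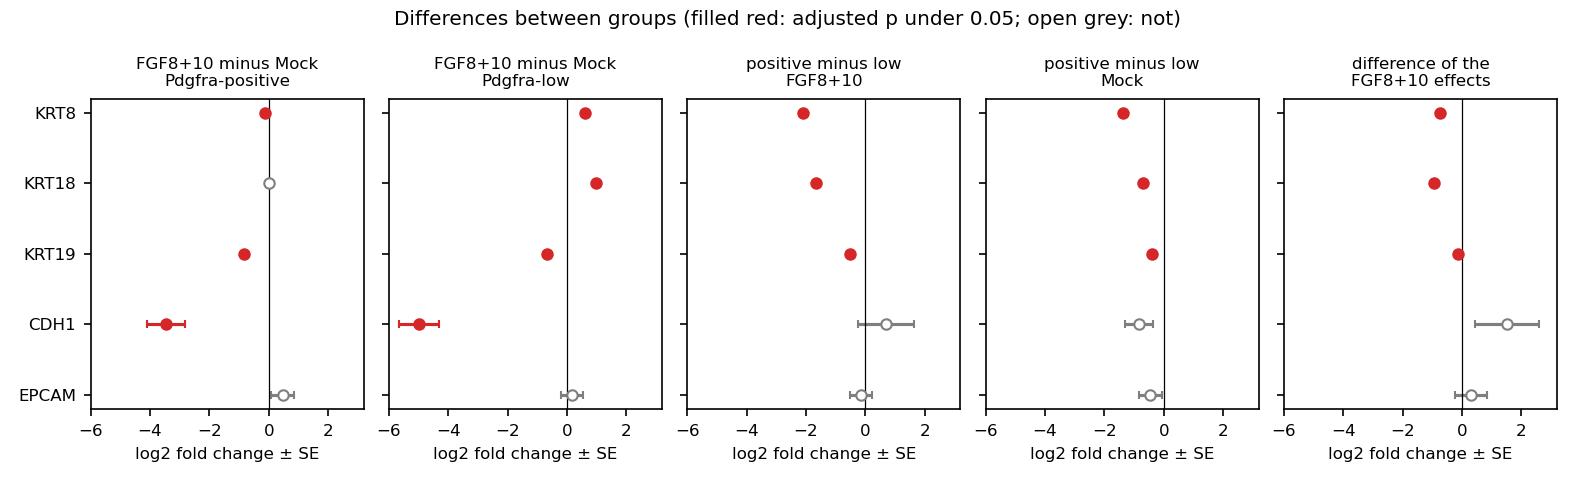
Differences between groups for the 5 tested genes (horizontal axis, log2 fold change with its standard error) in 5 comparisons, 1 per panel; filled red points have an adjusted p under 0.05. KRT8 and KRT18 lie right of 0 for FGF8+10 in Pdgfra-low cells, KRT19 and CDH1 lie left of 0 in both populations, and EPCAM is open in all panels.

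Counted over the 5 tested genes, FGF8+10 in Pdgfra-positive cells went with 0 higher and 3 lower (KRT8, KRT19 and CDH1), where 25.8% and 25.1% of all tested genes were called higher and lower. Their median log2 fold change was -0.14, against -0.0105 over all genes. In Pdgfra-low cells 2 were higher (KRT8 and KRT18) and 2 lower (KRT19 and CDH1), beside 27.9% and 27.7% of all genes, with medians of 0.17 and -0.0152. For Pdgfra-positive minus Pdgfra-low, 0 were higher and the 3 abundant keratins were lower under FGF8+10 (19.6% and 21.7% of all genes; medians -0.53 and 0.0109) and under Mock (12.4% and 13.4% of all genes; medians -0.69 and 0.0158). The difference between the FGF8+10 effects called 0 higher and the same 3 keratins lower (12% and 14% of all genes; medians -0.14 and -0.00915). The comparisons share groups, so their counts are not independent of each other.

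Within a library, the balance of the keratins shifted with the group. The ratio of KRT8 to KRT18 CPM was 2.63 and 2.61 in Mock Pdgfra-positive, 2.39 and 2.29 in FGF8+10 Pdgfra-positive, 4.07 and 4.24 in Mock Pdgfra-low and 3.22 and 3.19 in FGF8+10 Pdgfra-low libraries. No groups overlapped, and the ratio was lower with FGF8+10 in both populations. KRT19 to KRT18, both type I keratins, stood at 7.39 and 7.25, 4.09 and 4.03, 5.86 and 6.03, and 1.83 and 1.91 on RPKM in the same order of groups. KRT18 thus made up 11.9% and 12.1% of the type I RPKM in Mock Pdgfra-positive cells and 35.3% and 34.4% in FGF8+10 Pdgfra-low cells. The ratio of type II (KRT7 and KRT8) to type I (KRT18 and KRT19) RPKM was 0.14 and 0.141, 0.209 and 0.203, 0.265 and 0.269, and 0.506 and 0.488 in that order. With principal transcript lengths it ran from 0.264 in a Mock Pdgfra-positive library to 0.92 in a FGF8+10 Pdgfra-low library, with the groups in the same order. These ratios are a description and were not tested.

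**Figure D3:**
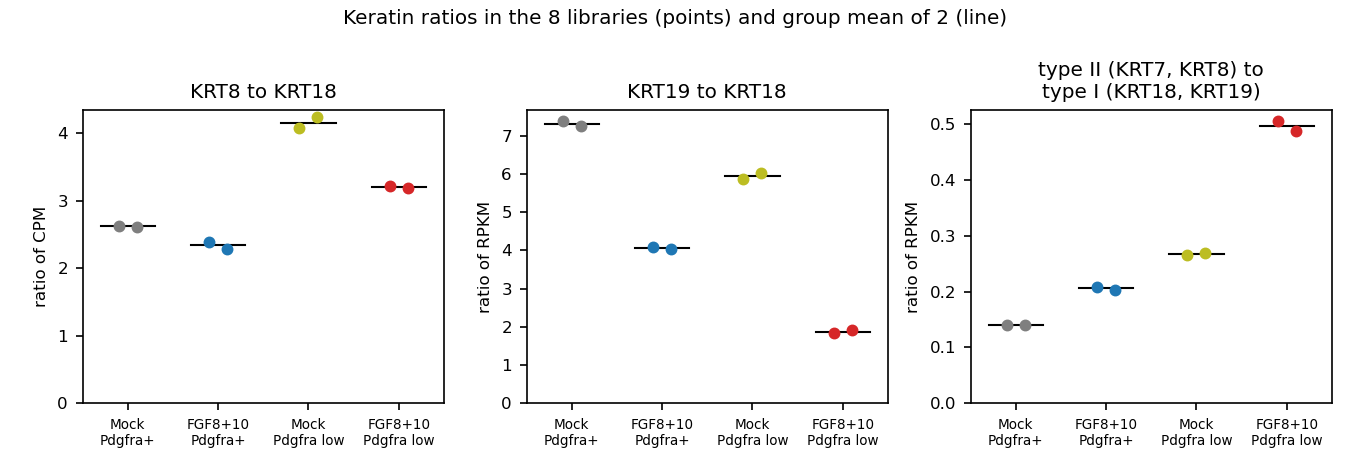
Ratios of keratin levels (vertical axes, from 0) in the 8 libraries; points are libraries and lines are the means of 2. KRT8 to KRT18 is highest in Mock Pdgfra-low cells (4.07 and 4.24), and the ratio of type II to type I keratins is highest in FGF8+10 Pdgfra-low cells (0.506 and 0.488).

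KRT8 and KRT18 are neighbours in the genome, and how reads were assigned bears on their counts. Their annotated exons overlap on opposite strands by 525 bases, which is 7.63% of the exon bases of KRT8 and 17.1% of those of KRT18, and counting used no strand and dropped reads over more than 1 gene. Both also have many processed copies: the table names 51 copies of KRT8, 67 of KRT18 and 5 of KRT19. Of the 50-base windows in the principal transcripts, 36.9% for KRT8, 47.6% for KRT18 and 1.79% for KRT19 occur in transcripts of another gene name. Of the 100-base windows, 7.75%, 16.6% and 0% do, and those of KRT18 are shared with KRT8 alone. The level of KRT18 against KRT19 is thus uncertain in this counting. The copies are counted apart from their parents, and their counts equalled 0.79% to 4.21% of the KRT8 count, 0.749% to 4.37% of the KRT18 count and at most 0.135% of the KRT19 count. Adding them to the parent left the KRT8 to KRT18 ratio between 2.33 and 4.24.

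The promoter table holds 1 of the 6 genes, KRT8. Its sequence is shown because it was the only one available. These 250 bases before the RefSeq start (GRCh38.p14, chr12:52926470-52926719, minus strand, 5′ to 3′) hold 1 match to GGAAGT, an ETS-type core, read as ACTTCC and in capitals. This start is 1 of several, since KRT8 has 17 transcripts in GENCODE 29 and the principal one begins at 52949842. The window has no match on either strand to CAGGTG (an E-box of SNAI and ZEB factors), TGACTCA or TGAGTCA (AP-1), GGGCGG (a GC box) or TATAAA. In all 35116 promoters of that length, GGAAGT occurs in 19.5%, CAGGTG in 17.5%, the AP-1 motifs in 4.2%, GGGCGG in 42.6% and TATAAA in 10.7%. AACCGGTT or AACTGGTT, found in 0.689% of them, also had no match in the KRT8 window.
KRT8: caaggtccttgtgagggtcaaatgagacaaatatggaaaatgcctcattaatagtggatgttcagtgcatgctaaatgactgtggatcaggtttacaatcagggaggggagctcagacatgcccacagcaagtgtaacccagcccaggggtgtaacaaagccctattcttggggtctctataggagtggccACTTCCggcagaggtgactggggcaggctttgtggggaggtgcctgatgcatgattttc

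Patterns across the 8 libraries were compared with those of 15132 other genes at a mean of 1 CPM or more, by the root mean square difference of log2 CPM after centring each gene on its mean. Nearest to KRT8 were THBS1 (thrombospondin-1; 0.167), CDKN1A (the CDK inhibitor p21; 0.178) and ANXA2 (annexin A2; 0.185). ANXA2 had means of 112 and 140 CPM in Mock and FGF8+10 Pdgfra-positive cells, and 308 and 449 CPM in the Pdgfra-low cells. KRT18 was nearest to GCNT4, a glycosyltransferase gene (0.172), TRPA1, an ion channel gene (0.174), and DNAI3 (0.177). KRT18 ranked 13 in likeness to KRT8 (0.316), and KRT8 ranked 59 in likeness to KRT18. KRT19 was nearest to VTN (vitronectin; 0.0568), ZBTB24 (0.0578) and CEBPG (0.0594), while KRT8 ranked 12831 and KRT18 ranked 12284. In turn, KRT19 ranked 3016 in likeness to KRT8 (0.818) and 8147 in likeness to KRT18 (0.75). The 2 partners thus had patterns nearer to each other than to KRT19. CDH1, EPCAM and KRT7 averaged under 1 CPM and were not ranked.

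Other keratins were sparse. Of 30 other keratin genes, 7 passed the filter on low counts and 12 to 20 were at 0 in a given group, and their summed level was 16.7 to 26.7 CPM. With FGF8+10, 0 of the 7 were higher and 2 lower in Pdgfra-positive cells (0 lower with library totals alone), and 0 higher and 3 lower in Pdgfra-low cells. Over all tested genes, 25.8% were called higher and 25.1% lower in Pdgfra-positive cells, and 27.9% and 27.7% in Pdgfra-low cells. The same shares apply beside the FGF8+10 counts of each list below. KRT10, a type I keratin of differentiating epidermis, made up most of the summed level and was the only one at 1 CPM or more in any group. Its means were 19.5 CPM in Mock Pdgfra-positive, 16.1 in FGF8+10 Pdgfra-positive, 23.3 in Mock Pdgfra-low and 16.5 in FGF8+10 Pdgfra-low cells. FGF8+10 minus Mock was -0.49 ± 0.0789 for KRT10 in Pdgfra-low cells (adjusted p = 6.33e-07). In Pdgfra-positive cells it was -0.28 ± 0.0804 (adjusted p = 0.0032), and -0.11 with library totals alone (adjusted p = 0.287). The basal epidermal keratins KRT5 and KRT14 had group means of at most 0.10 and 0.12 CPM.

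The linkers and desmosome genes that anchor keratin filaments split. With FGF8+10, 8 of 17 tested genes were higher and 6 lower in Pdgfra-positive cells (median log2 0.0454), and 7 were higher and 7 lower in Pdgfra-low cells (median -0.0954). The medians over all tested genes were -0.0105 and -0.0152. DSP, desmoplakin, which ties keratin filaments to desmosomes, was 118 ± 4.73 CPM in Mock and 325 ± 10 CPM (SD, n = 2) in FGF8+10 Pdgfra-positive cells, and rose by 1.46 ± 0.0284 on the log2 scale (adjusted p = 4.54e-38). In Pdgfra-low cells it was 229 ± 3.25 and 434 ± 1.93 CPM (log2 0.92 ± 0.0268, adjusted p = 2.82e-31). PKP2, the desmosomal plaque protein plakophilin 2, moved the other way: it fell from 490 ± 0.24 to 151 ± 1.58 CPM in Pdgfra-positive cells (log2 -1.70 ± 0.0247, adjusted p = 5.03e-43). The same gene fell from 477 ± 5.2 to 128 ± 0.54 CPM in Pdgfra-low cells (log2 -1.89 ± 0.0251, adjusted p = 1.06e-44). DSP was also higher in Pdgfra-low cells, as KRT8 and KRT18 were, both under FGF8+10 (positive minus low, log2 -0.42 ± 0.0263, adjusted p = 5.08e-18) and under Mock (log2 -0.96 ± 0.0286, adjusted p = 1.61e-29). In that comparison the list had 4 genes higher and 6 lower under FGF8+10, and 0 higher and 8 lower under Mock. Over all tested genes, 19.6% were called higher and 21.7% lower under FGF8+10, and 12.4% and 13.4% under Mock.

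The catenins and nectins that work with E-cadherin ranged widely in level. NECTIN4 was scarce, with group means of at most 0.23 CPM, and CTNND1 (p120 catenin) lay at 10.3 to 15.4 CPM. Of the exon bases of CTNND1, 39.1% also belong to other gene names on the same strand. Reads in these shared bases went uncounted, so the CTNND1 level may be too low. The size of this loss was not tested. CTNNB1, beta-catenin, had means of 990 to 1125 CPM in the 4 groups. CTNNA1, alpha-catenin, was higher with FGF8+10 in both populations (log2 0.30 ± 0.0246, adjusted p = 1.98e-14, and 0.31 ± 0.0244, adjusted p = 2.08e-15), at 370 ± 5 against 301 ± 7.27 CPM in Pdgfra-positive cells. NECTIN1, a junctional adhesion receptor, fell in Pdgfra-positive and Pdgfra-low cells (log2 -0.95 ± 0.0723 and -0.93 ± 0.0695, adjusted p = 1.57e-15 and 5.29e-16). Of the 12 genes of this list, 5 were higher and 4 lower in Pdgfra-positive cells (median log2 0.0745), and 4 and 4 in Pdgfra-low cells (median -0.00598). With library totals alone the split became 9 higher and 2 lower, and 7 higher and 3 lower, so the direction of the small changes in this list rests on the scaling.

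Of 13 tested tight junction genes, 4 were higher and 2 lower with FGF8+10 in Pdgfra-positive cells (median log2 0.31), and 6 and 1 in Pdgfra-low cells (median 0.55). CLDN7, a claudin that binds EPCAM, was among the higher ones, at 2.23 ± 0.16 against 0.455 ± 0.09 CPM in Pdgfra-positive cells (log2 2.29 ± 0.32, adjusted p = 3.81e-08) and 2.21 ± 0.16 against 0.288 ± 0.01 CPM in Pdgfra-low cells (log2 2.93 ± 0.33, adjusted p = 1.66e-10). PARD6B, a cell polarity scaffold, fell in both populations (log2 -2.37 ± 0.12, adjusted p = 2.52e-21, and -2.66 ± 0.12, adjusted p = 8.01e-24). Of 9 tested surface genes that accompany EPCAM in epithelia, 2 were higher and 4 lower in Pdgfra-positive cells (median -0.39), and 3 and 4 in Pdgfra-low cells (median -0.78). CD9, a tetraspanin, went from 38.3 ± 1.04 to 1.09 ± 0.18 CPM in Pdgfra-positive cells (log2 -5.14 ± 0.106, adjusted p = 5.96e-37) and from 45.1 ± 1.2 to 6.89 ± 0.26 CPM in Pdgfra-low cells (log2 -2.71 ± 0.0811, adjusted p = 1.05e-30). CD24, of the same list, was higher with FGF8+10 in Pdgfra-positive (log2 0.26 ± 0.0321, adjusted p = 1.87e-09) and Pdgfra-low cells (log2 0.81 ± 0.0326, adjusted p = 9.33e-26). The fall of CD9 thus ran beside that of CDH1, while CD24 rose and EPCAM was not called.

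Transcription and splicing factors of epithelia were scarce, and those called with FGF8+10 were all lower. Of 8 tested genes, 0 were higher and 5 lower in Pdgfra-positive cells (median log2 -1.36), and 0 and 3 in Pdgfra-low cells (median -0.38). In Pdgfra-low cells 5 were not called. Over all tested genes, 25.1% and 27.7% were called lower in the 2 populations. The list of 14 summed to 11 to 12 CPM in Mock and 4.05 to 4.99 CPM in FGF8+10 Pdgfra-positive libraries, and to 21.4 to 23.4 and 7.78 to 8.05 CPM in the Pdgfra-low ones. ELF3, an ETS factor of simple epithelia, went from 1.2 ± 0.24 to 0.0517 ± 0.03 CPM in Pdgfra-positive cells (log2 -4.48 ± 0.51, adjusted p = 2.32e-10) and from 2.32 ± 0.02 to 0.0983 ± 0.006 CPM in Pdgfra-low cells (log2 -4.53 ± 0.46, adjusted p = 6.3e-12). KLF5, a zinc finger factor of epithelia and of pluripotent cells, fell in both populations (log2 -1.41 ± 0.14 and -1.79 ± 0.13, adjusted p = 1.37e-11 and 3.91e-16). With group means of 2.79 to 15.7 CPM, KLF5 gave most of each list sum.

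The known repressors of CDH1 did not move as one. In Pdgfra-positive cells 7 of 10 tested genes were higher and 1 lower with FGF8+10 (median log2 0.31), whereas in Pdgfra-low cells 4 were higher and 5 lower (median -0.0234). ZEB1, a zinc finger repressor that binds E-boxes, was higher in both, at 56.6 ± 2.07 against 12.6 ± 0.18 CPM in Pdgfra-positive cells (log2 2.17 ± 0.0607, adjusted p = 9.69e-32) and 74.2 ± 1.8 against 27.5 ± 0.47 CPM in Pdgfra-low cells (log2 1.43 ± 0.0534, adjusted p = 5.52e-27). SNAI2, or Slug, was lower in Pdgfra-low cells (log2 -0.70 ± 0.028, adjusted p = 8.73e-26). In Pdgfra-positive cells it was lower (log2 -0.15 ± 0.0283, adjusted p = 2.23e-05), and it stood at 0.0267 with library totals alone (adjusted p = 0.456). That scaling called 8 of the repressors higher and 0 lower in Pdgfra-positive cells, and 5 and 5 in Pdgfra-low cells.

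Filaments and cadherins of mesenchyme were mostly higher with FGF8+10, in 6 of 8 genes in Pdgfra-positive cells (2 lower, median log2 1.43) and in 7 of 8 in Pdgfra-low cells (1 lower, median 1.58). CDH2, or N-cadherin, was 116 ± 2.8 CPM in Mock and 887 ± 14.8 CPM in FGF8+10 Pdgfra-positive cells (log2 2.94 ± 0.0259, adjusted p = 1.45e-51), and 108 ± 0.38 against 533 ± 10.4 CPM in the Pdgfra-low ones. CDH6, another mesodermal cadherin, rose by 2.62 ± 0.14 and 2.74 ± 0.15 (adjusted p = 1.75e-20 and 2.13e-20). Desmin (DES), the filament of muscle, fell in both populations (log2 -2.07 ± 0.13 and -3.19 ± 0.15, adjusted p = 2.53e-18 and 6.83e-23). Between the populations, VIM, the vimentin filament of mesenchyme, was higher in Pdgfra-positive cells under Mock (log2 0.40 ± 0.0207, adjusted p = 1.21e-20), opposite to the keratins. NES, another filament gene, was lower there, as the keratins were, under Mock (log2 -0.0931 ± 0.0347, adjusted p = 0.0417) and FGF8+10 (log2 -0.90 ± 0.0306, adjusted p = 1.14e-27). SYNM was lower under FGF8+10 (log2 -0.42 ± 0.0857, adjusted p = 5.54e-05). Of the 8 genes, 5 were higher and 1 lower under Mock (12.4% and 13.4% of all tested genes), and 6 and 2 under FGF8+10 (19.6% and 21.7%). Group means of VIM were 643 to 850 CPM under Mock and 1572 to 2412 CPM under FGF8+10, and the antisense genes that share 24.6% of its exon bases were not separated by strand.

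**Figure D4:**
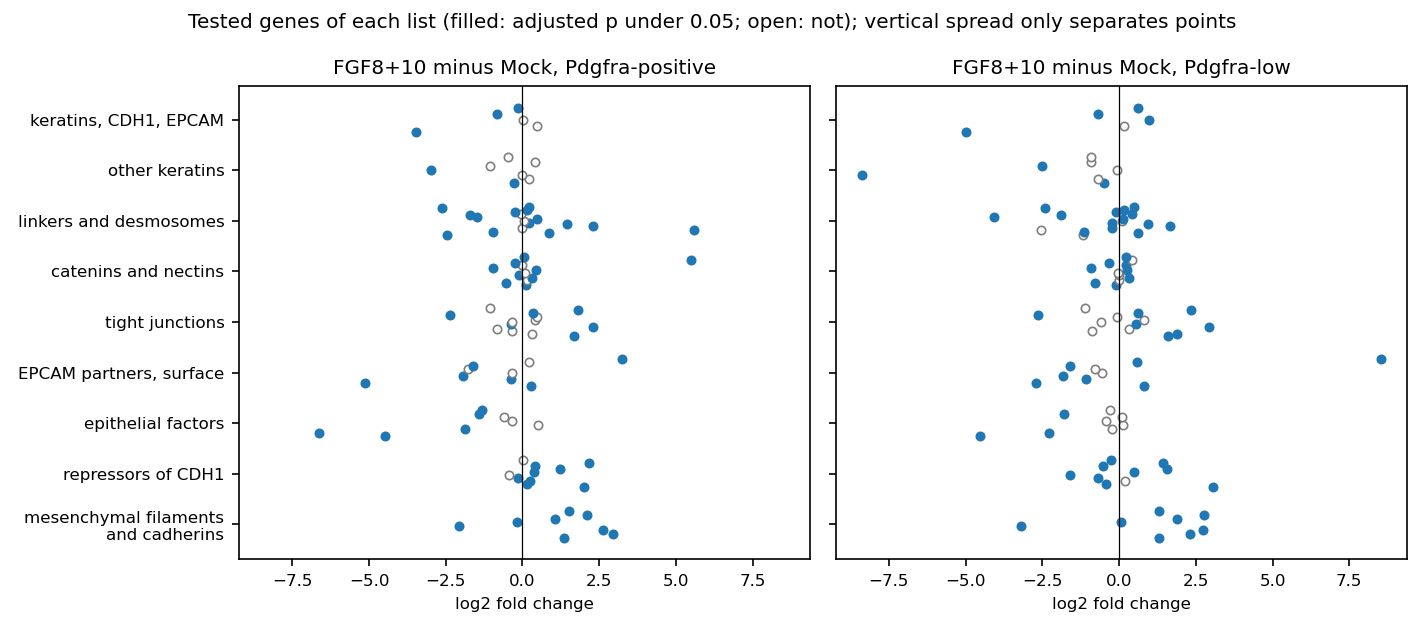
Log2 fold change with FGF8+10 (horizontal axis, shared by both panels) of each tested gene in 9 lists, for Pdgfra-positive (left) and Pdgfra-low cells (right); filled points have an adjusted p under 0.05, and the values farthest from 0 belong to genes near 0 CPM in 1 group, whose fitted size depends on the prior count. The epithelial factors have no filled point right of 0, and mesenchymal filaments and cadherins lie mostly right of 0.

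Markers of other cell types that make these keratins were measured alongside. Of 12 mesothelium and epicardium markers, 10 were tested, and 2 were higher and 6 lower in Pdgfra-positive than in Pdgfra-low cells under Mock, and 3 and 6 under FGF8+10. Over all tested genes, 12.4% were called higher and 13.4% lower under Mock, and 19.6% and 21.7% under FGF8+10. The 12 markers summed to 456 to 463 CPM in Mock Pdgfra-positive, 729 to 732 in Mock Pdgfra-low, 302 to 314 in FGF8+10 Pdgfra-positive and 304 to 308 CPM in FGF8+10 Pdgfra-low libraries. PDPN (podoplanin) gave most of the Mock sums, at 447 ± 5.41 CPM in the Pdgfra-low and 281 ± 1.11 CPM in the Pdgfra-positive group. Without PDPN, a sum added after seeing the data, the other 11 markers gave 175 to 181, 282 to 286, 279 to 288 and 274 CPM in that order of groups. Mock Pdgfra-positive cells were then the lowest and the other 3 groups lay close together. UPK3B, a defining surface gene of mesothelium, was 14.02 ± 1.68 CPM in Mock Pdgfra-low cells and at most 0.67 CPM in the other groups, while ITLN1 was at 0 in all groups and MSLN (mesothelin) reached at most 0.25 CPM. BNC1 was also highest in Mock Pdgfra-low cells, at 81.9 ± 1.6 CPM. ALDH1A2 and TCF21 went the other way under Mock (positive minus low, log2 4.14 ± 0.159, adjusted p = 2.38e-25, and 0.20 ± 0.0528, adjusted p = 0.00247). ALDH1A2 had means of 7.73 CPM in Mock Pdgfra-positive, 0.437 in Mock Pdgfra-low, 79 in FGF8+10 Pdgfra-positive and 45.6 CPM in FGF8+10 Pdgfra-low cells. The sums thus join markers that moved in opposite directions. The part of mesothelial cells in the keratin levels was not tested.

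The summed level of 12 endothelial markers was highest in FGF8+10 Pdgfra-low cells, as KRT8 and KRT18 were. All 12 were tested, and with FGF8+10 12 were higher in Pdgfra-low cells, against 6 higher and 2 lower in Pdgfra-positive cells. Over all tested genes, 27.9% were called higher in Pdgfra-low cells, and 25.8% higher and 25.1% lower in Pdgfra-positive cells. The 12 markers summed to 2770 to 2780 CPM in FGF8+10 Pdgfra-low, 2250 in FGF8+10 Pdgfra-positive, 1510 to 1520 in Mock Pdgfra-low and 1440 to 1450 CPM in Mock Pdgfra-positive libraries. KDR gave most of each sum, with means of 1969, 1610, 1205 and 1154 CPM in that order of groups. PECAM1 was 18.5 ± 1.33 CPM in FGF8+10 Pdgfra-low cells and at most 2.6 CPM in the other groups. TEK, an angiopoietin receptor, was level in the 2 FGF8+10 populations, with 491 ± 7.54 CPM for Pdgfra-positive and 483 ± 4.02 CPM for Pdgfra-low (positive minus low, log2 0.0235 ± 0.0233, adjusted p = 0.467). For Pdgfra-positive minus Pdgfra-low under FGF8+10, 0 markers were higher and 11 lower, beside 19.6% and 21.7% of all tested genes. Under Mock 4 were higher and 2 lower, beside 12.4% and 13.4% of all tested genes. The higher ones under Mock included EMCN (log2 1.75 ± 0.29, adjusted p = 5.58e-06) and ERG (log2 1.32 ± 0.0872, adjusted p = 7.86e-17), and the lower ones were FLT1 (log2 -0.46 ± 0.0316, adjusted p = 2.14e-16) and KDR (log2 -0.0629 ± 0.0175, adjusted p = 0.00494). The part of endothelial cells in the keratin levels was not tested.

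Markers of other epithelia were mixed, with some defining genes at 0 and others well expressed. Of the amnion and surface ectoderm markers, GABRP and VTCN1 were at 0 in both FGF8+10 groups and KRT14 was at 0 in all groups but Mock Pdgfra-low. The list of 12 summed to 18800 to 19000 CPM in Mock Pdgfra-positive, 15200 to 15300 in Mock Pdgfra-low, 7360 to 7410 in FGF8+10 Pdgfra-positive and 3610 to 3650 CPM in FGF8+10 Pdgfra-low libraries, nearly all of it IGFBP3, which other tissues also express. With FGF8+10, 3 of its 7 tested genes were higher and 3 lower in Pdgfra-positive cells, and 3 and 4 in Pdgfra-low cells. The higher ones included CDX2, a homeobox factor, at 112 ± 4.29 against 34.8 ± 3.41 CPM in Pdgfra-positive and 106 ± 2.91 against 20.6 ± 0.61 CPM in Pdgfra-low cells.

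The 10 endoderm markers summed to 130 to 139 CPM in Mock Pdgfra-positive, 158 to 161 in Mock Pdgfra-low, 196 to 197 in FGF8+10 Pdgfra-positive and 126 to 131 CPM in FGF8+10 Pdgfra-low libraries. With FGF8+10, 2 of 3 tested genes were higher (CXCR4 and SOX17) and 1 lower (GATA6) in each population. CXCR4, a chemokine receptor also made by mesoderm, was 91.8 ± 0.12 against 3.78 ± 0.44 CPM in Pdgfra-positive and 57.1 ± 3.65 against 1.59 ± 0.1 CPM in Pdgfra-low cells. GATA6 had group means of 68.5 to 158 CPM, FOXA2 was at 0 in all groups and HNF4A in 3 of the 4. The 8 kidney and nephric duct markers summed to 49.5 to 49.8, 35 to 39.9, 52.1 to 53.5 and 29.9 to 32.6 CPM in the same order of groups, most of it GATA3 with group means of up to 48.5 CPM. Of their 3 tested genes, 2 were higher and 0 lower with FGF8+10 in Pdgfra-positive cells, and 2 and 1 in Pdgfra-low cells, while EMX2 and CDH16 were at 0 in 3 of the 4 groups. Of the pluripotency markers, NANOG was at 0 in the FGF8+10 groups, and the list summed to 133 to 334 CPM over the 8 libraries, with LIN28A at group means of 37.6 to 218 CPM. The part of such cells in the keratin, CDH1 and EPCAM levels was not tested.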

How the data were processed

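For the 8 libraries the authors deposited raw counts, 1 line per gene name and no summary lines. The submitters' processing notes name FastQC 0.11.8, HISAT2 2.1.0 (an aligner) and the build GRCh38. Counting was done with featureCounts 2.0.3 on exons of GENCODE 42, per the file headers, paired but without counting pairs, unstranded, so both mates were counted and reads over several genes or places were dropped. The Length column (bases of merged exons), also deposited, gave RPKM.

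In R 4.3.3, edgeR 4.0.16 scaled libraries by TMM (factors 0.936 to 1.065), kept 22554 of 39416 names with any count (filterByExpr), and fitted 1 robust quasi-likelihood model over 4 group means. The 5 contrasts were two-sided, with Benjamini-Hochberg adjustment over all tested genes at 0.05. The standard error is the log2 fold change over the square root of F, and can be too small for genes near 0. DESeq2 1.42.0, other scalings and filters, a replicate block and leaving out each library were alternatives. The fit was tested on simulated data. Principal transcript lengths, and processed copies added to their parents, were chosen after seeing the data.

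All 6 genes are described. From each other list, the 2 largest rises and falls past the threshold at 1 CPM or more could be named, and the text names some of these, with levels of defining markers chosen by their role. The members and lists were chosen with earlier results of these data known.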

Additional observations from a re-analysis of the deposited data

Results flagged for a closer look

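The effect of FGF8+10 differed between the Pdgfra-positive and Pdgfra-low populations for 3 genes when that difference was tested in the edgeR model. Pdgfra-positive minus Pdgfra-low, the log2 values were -0.74 for KRT8 (adjusted p = 8.95e-23), -0.96 for KRT18 (adjusted p = 4.34e-21) and -0.14 for KRT19 (adjusted p = 0.000776). For KRT8 and KRT18 the level with FGF8+10 was higher in Pdgfra-low cells, and for KRT19 it was lower in both populations. Groups of 2 libraries are too small to be searched for a library far from the others.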

How the results depend on the processing

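Over 16 alternative settings, 8 of which left out a library, 389 values of the 5 tested genes were recomputed, and 387 kept their direction and their side of the threshold. Both exceptions came with library totals alone, in Pdgfra-positive cells with FGF8+10: KRT8 stood at 0.0327 (adjusted p = 0.265) and KRT18 at 0.20 (adjusted p = 5.06e-06), so that 1 gene was called higher. That scaling moves the median log2 fold change of all genes by 0.17 and 0.16 for FGF8+10 in Pdgfra-positive and Pdgfra-low cells. Genes called higher and lower went from 5811 and 5658 to 8164 and 3991, and from 6300 and 6256 to 8113 and 4672. Keeping genes at 1 CPM or more in 2 libraries left 1 gene called lower with FGF8+10 in Pdgfra-low cells, because CDH1 was removed. The deviations of same-numbered libraries correlated at -0.0176 to 0.0254 over genes at 1 CPM or more. Counting error also enters these values, so they cannot show whether same-numbered libraries shared a culture. With the replicate block KRT8 in Pdgfra-low cells kept 0.60 (adjusted p = 8.18e-26), and 6261 and 6190 genes were called there. With 2 libraries per group, and a median gene's biological coefficient of variation of 8.58%, depth limits CDH1, EPCAM and KRT7, which rest on at most 92 counts per library.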
